A study of Rattus norvegicus with 10 samples.

Results

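The 5 samples described here are the total tumours of a study of rat mammary cancer, and they make up 5 of its 10 arrays. They were taken from the labels alone, as the samples titled total tumour and marked as the final moment. The tumours are named 31D3, 32D1, 37I1, 50I1 and 52I4. Each came from a female Sprague-Dawley rat, an outbred strain, and each had been induced by 1 oral dose of 100 mg/kg of 7,12-dimethylbenz(a)anthracene (DMBA). The rats were 19 weeks old when killed, no other treatment was given, and the samples had been chosen for a histology of Bloom-Richardson grade II. The other 5 arrays are biopsies from tumours of the same names at 12 weeks and were not used here. The series text speaks of a needle sample at the final moment, whereas the sample labels say total tumour, and the labels were followed. They do not say whether the 5 tumours grew in 5 different rats.

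DMBA is a polycyclic aromatic hydrocarbon that liver and mammary enzymes turn into a metabolite that binds DNA. The tumours it gives in young female rats are mostly ductal carcinomas that depend on ovarian hormones and prolactin. The mammary epithelium has a luminal layer, which can turn into milk-secreting alveolar cells under prolactin through the transcription factor STAT5, and a basal layer of contractile myoepithelial cells. A whole tumour also holds fibroblasts, vessels, fat and immune cells, so its RNA is a mixture.

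Each tumour was measured on 1 Affymetrix array, so a difference between tumours has no replicate of its own, and no test was made. Values are log2 signals, on which a difference of 1 is a doubling of signal, and an SD is over the 5 tumours. After 57 control probe sets were dropped, signals lay between 2.34 and 14.26 and array medians between 6.02 and 6.06. Of 14217 genes named by a probe set of their own, 10858 had a mean signal above 5.15, the level that leaves out the dimmest 40% of probe sets. Their median SD was 0.217, and 95% of them had an SD below 0.836.

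Tumour 31D3 differed from the others in the most genes on average. Between 956 and 1150 of the 10858 genes differed by over 1 log2 unit between 31D3 and another tumour, a mean of 1019. For 37I1 the mean was 864.5, with 919 genes against 52I4, 804 against 50I1 and 745 against 32D1. The smallest number, 300, was between 50I1 and 52I4. The Pearson correlation over genes, which are not independent replicates, was 0.972 between 50I1 and 52I4 and 0.909 between 31D3 and 50I1. For each gene list led by 31D3, the spread is therefore also given without it.

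All 5 tumours carried the epithelial markers of the mammary gland. The luminal keratin genes Krt8 and Krt18 had signals of 11.99 to 12.89 and 12.30 to 13.03, and the basal keratin genes Krt5 and Krt14 had 11.98 to 12.62 and 11.96 to 12.23. Epcam, an epithelial adhesion gene, lay between 12.75 and 13.13, and Krt19 had an SD of only 0.05. The basal transcription factor gene Tp63 lay between 9.07 and 10.02. Within the luminal list Muc1, a membrane mucin, varied most, from 6.24 in 32D1 to 9.11 in 50I1, and the epithelial genes Ehf and Cldn3 were highest in 37I1, at 7.66 and 11.70. Within the basal list the smooth muscle actin gene Actg2 and the myosin kinase gene Mylk were also highest in 37I1, at 10.75 and 12.03, and the Notch ligand gene Jag2 in 52I4, at 9.12. The means over the 19 measured luminal genes and the 18 measured basal genes spanned 0.46 and 0.44 log2 units from the lowest to the highest tumour (0.65 and 0.85 with the median of the genes).

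Most of the brightest genes were those of protein synthesis and respiration. The 15 highest means ran from 13.69 to 14.09, and 9 of these genes encode cytoplasmic ribosomal proteins (Rpl26, Rps29, Rpl7a, Rpl27a, Rps6, Rpl3, Rps24, Rps23 and Rpl41), with SDs from 0.0204 to 0.0572. Eef1a1, the translation elongation factor, had the highest mean at 14.09, and the mitochondrial cytochrome oxidase genes COX1 and COX2 had means of 14.07 and 13.94. B2m, the invariant chain of MHC class I, and Actg1, a cytoskeletal actin, had means of 13.90 and 13.84. Clca1, which encodes a secreted regulator of chloride channels, was the most variable of the 15, at 14.16, 14.03, 13.37, 13.67 and 13.51 in 31D3, 32D1, 37I1, 50I1 and 52I4. Its second probe set was also brightest in 31D3. These signals lie close to the highest on any array, 14.26, where differences may be compressed, and how far that sets their small SDs was not tested. Probe sets differ in how well they bind, so these levels do not rank RNA amounts between genes.

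Respiratory chain genes also had small SDs. The means over 28 oxidative phosphorylation genes spanned 0.25 log2 units, from 10.94 in 37I1 to 11.19 in 32D1, and those over 17 ribosomal protein genes spanned 0.10 (0.19 with the median of the genes). Within the first list Ndufa4, a subunit associated with cytochrome oxidase, had the largest SD at 0.28, and Cox6b1 had the smallest at 0.03. In the second list Rps3 varied most, with an SD of 0.10.

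At the other end, 328 of the 10858 genes (3.02%) had an SD over 1 log2 unit, and 614 spanned over 2 log2 units between their lowest and highest tumour. Just inside the limit of 1 were Ifit3, LOC100910558 and Cxcl10, the last with an SD of 1.0, and just outside were Cpa3, Milr1 and Fam13c. In 110 of the 328 genes at least 1 tumour was below 5.15, near background, where a difference is a rough measure of its size. Another 33 genes with an SD over 1 had been left out as dim, among them the mast cell protease gene Mcpt4, at 9.83 in 31D3 and at most 3.67 in the other 4 tumours. Of 71 further probe sets for 51 of the 328 genes, 65 were highest in the same tumour as the main probe set. That is 91.5% (exact 95% interval 82.5 to 96.8), against 52.7% of 3944 such probe sets over all genes. The interval treats probe sets of the same gene as independent, so it is too narrow. The 51 genes were picked for their SD over these same arrays, so the contrast with all genes is no separate support for them.

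**Figure D1:**
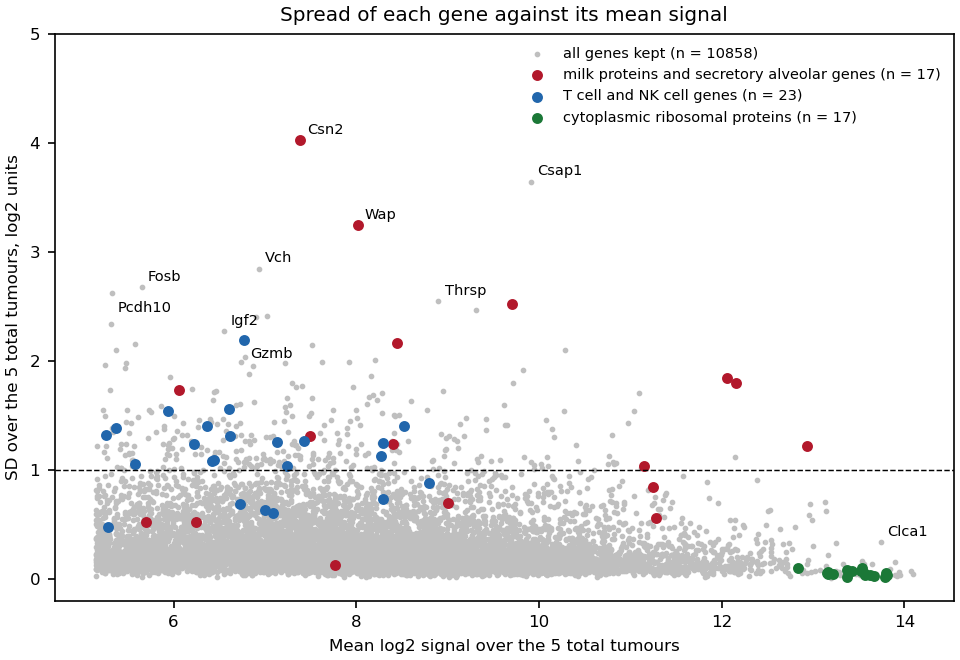
Each point is a gene, with its mean log2 signal over the 5 total tumours on the horizontal axis and its SD over them, in log2 units, on the vertical axis. The dashed line marks an SD of 1, passed by 328 of 10858 genes. Milk genes reach an SD of 4.02, T cell and NK cell genes lie mostly above the line at moderate signal, and ribosomal protein genes lie at the bright end with SDs of at most 0.10.

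Of the 25 genes with the largest SDs, from 1.98 upward, 10 were highest in 37I1, 7 in 31D3, 4 in 50I1, 3 in 32D1 and 1 in 52I4. Csn2, which encodes beta-casein and had the largest SD, had 3.57 in 31D3, 3.82 in 32D1, 9.37 in 37I1, 13.17 in 50I1 and 7.02 in 52I4, with an SD of 4.02. It was at background level in 31D3 and 32D1 and bright in 50I1. Wap, which encodes whey acidic protein, followed the same order at its upper end, with 5.58, 5.20, 9.70, 12.89 and 6.73. Csap1, which encodes a salivary secretory protein, ranked between them by SD, with 4.36, 8.58, 13.22, 12.95 and 10.44.

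Secretory differentiation was the program with the widest spread. Over 17 measured genes of milk proteins and alveolar secretion, the mean signal was 8.34 in 31D3, 7.48 in 32D1, 10.48 in 37I1, 10.29 in 50I1 and 9.01 in 52I4, a span of 3.0. Of these genes, 12 were highest in 37I1, against 23.4% of all genes, 13 were lowest in 32D1, against 17.8% of all, and 11 had an SD over 1. The span was between 2.14 and 3.0 with any tumour left out, and with the median of the list in place of its mean 50I1 was highest instead of 37I1. The T cell and NK cell list spanned 2.77, or 0.854 to 2.76 with a tumour left out, and 17 of its 23 genes had an SD over 1. Which of these lists spanned more thus depended on the tumours included.

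The members differed in which of those tumours led. Csn1s1, which encodes alpha-s1-casein, had 11.09 in 31D3, 9.75 in 32D1, 13.92 in 37I1, 13.86 in 50I1 and 12.17 in 52I4. Lalba, which encodes alpha-lactalbumin, the cofactor of lactose synthesis, had 11.16, 9.27, 13.67, 13.43 and 12.75 in the same tumours. Both stayed bright in every tumour, unlike Csn2 and Wap, and both differed little between 37I1 and 50I1. Csn3, which encodes the micelle-stabilising kappa-casein, reached 14.00 in both 37I1 and 50I1 and had its lowest value, 11.09, in 32D1. In 37I1 and 50I1 these 3 genes lie near the highest signal on any array, 14.26, where differences may be compressed. Their order between those tumours is therefore a weak guide. The mean over the 5 genes of caseins, Wap and Lalba was 13.47 in 50I1 and 12.13 in 37I1.

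Genes of alveolar regulation and milk lipid were not all highest in the same tumour. Elf5, the transcription factor of alveolar fate, had 7.79 in 31D3, 5.18 in 32D1, 10.97 in 37I1, 9.55 in 50I1 and 8.75 in 52I4. Olah, the thioesterase that releases the medium-chain fatty acids of milk, had 7.73, 6.52, 12.71, 10.96 and 10.58. Thrsp, a regulator of fatty acid synthesis, had 6.05, 7.13, 12.61, 9.88 and 8.84, with 2 further probe sets also highest in 37I1. In these 3 genes 37I1 was highest, then 50I1, then 52I4. Cel, the lipase gene of milk, was instead highest in 50I1, at 8.48, with 7.24 in 37I1. Stat5a lay at 10.13 in 37I1 and between 8.39 and 9.09 elsewhere, while Stat5b had an SD of 0.12, and Prlr, the prolactin receptor gene, was bright throughout at 12.15 to 12.80, with its highest value in 32D1.

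**Figure D2:**
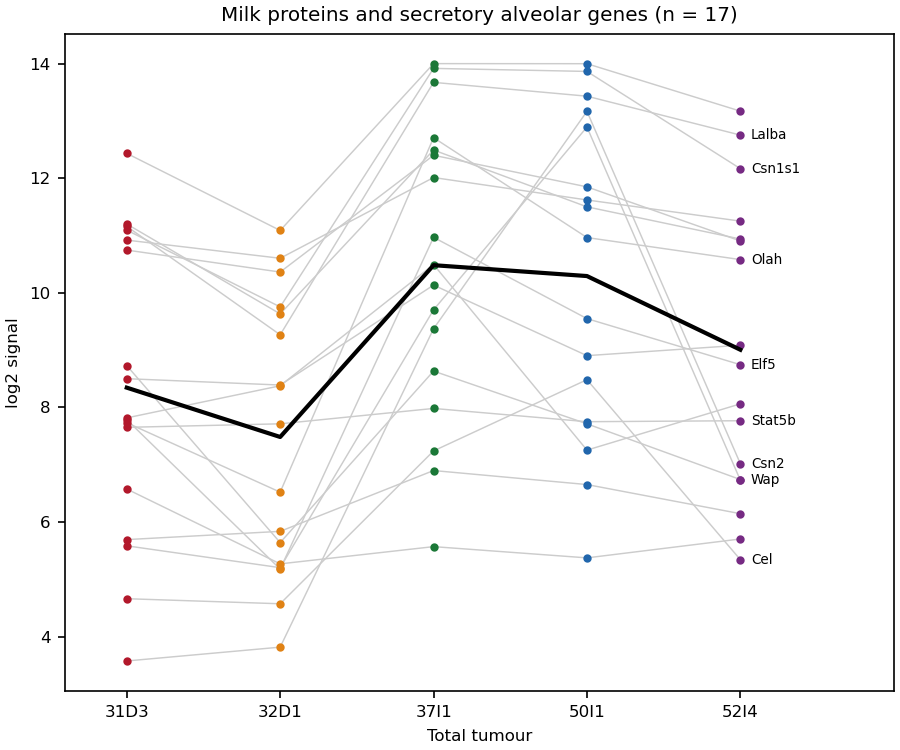
Log2 signal (vertical axis) of the 17 measured milk protein and secretory alveolar genes in each total tumour (horizontal axis). Each thin line is a gene and the thick line is their mean, which runs from 7.48 in 32D1 to 10.48 in 37I1. Csn2 and Wap peak in 50I1, most others in 37I1.

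The promoters of the casein genes are shown because beta-casein is the classic target of prolactin-activated STAT5, and Csn2 had the largest SD of all genes. The RefSeq promoter table for build GRCr8 gives 250 bases before to 50 bases after each start, written 5′ to 3′ on the gene's strand. TTCNNNGAA, the STAT5 site, was searched on both strands, and capitals mark it.
Csn2, chr14:20601574-20601873, plus strand: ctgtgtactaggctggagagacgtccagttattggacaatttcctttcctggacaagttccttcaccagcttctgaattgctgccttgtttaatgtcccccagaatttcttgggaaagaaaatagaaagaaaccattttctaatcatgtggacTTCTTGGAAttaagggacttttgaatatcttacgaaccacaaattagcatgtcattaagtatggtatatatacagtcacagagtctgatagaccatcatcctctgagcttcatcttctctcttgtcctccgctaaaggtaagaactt
Csn1s1, chr14:20638800-20639099, minus strand: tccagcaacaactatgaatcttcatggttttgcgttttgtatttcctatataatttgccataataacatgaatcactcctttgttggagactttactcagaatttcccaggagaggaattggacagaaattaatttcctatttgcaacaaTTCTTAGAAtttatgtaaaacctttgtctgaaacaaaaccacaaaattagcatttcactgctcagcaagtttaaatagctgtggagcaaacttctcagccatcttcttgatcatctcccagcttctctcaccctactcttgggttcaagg
The match begins 97 bases before the start in Csn2 and 100 in Csn1s1. Of 22 promoters of the milk list found in the table, 5 held the motif (Csn1s1, Csn1s2a, Csn1s2b, Csn2 and Glycam1), or 22.7%, against 8.87% of all 33469 promoters. Wap, Lalba and Csn3 had no such letters in this window. Among genes bright enough to be kept, it was found in 3 of 16 milk promoters, or 18.8%, and in 6.90% of all. A match is a run of letters and not evidence of binding.

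Immune cell genes formed the second large program, and 31D3 led it. All 23 measured T cell and NK cell genes were highest in 31D3, against 20.0% of all genes, and 16 were lowest in 50I1, against 16.3% of all. Their mean was 8.78 in 31D3, 6.57 in 32D1, 6.83 in 37I1, 6.0 in 50I1 and 6.11 in 52I4. The span of 2.77 became 0.85 without 31D3. In such bulk samples, fewer cells of a type and less RNA per cell cannot be told apart.

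Cytotoxic and T cell receptor genes were both in this pattern. Gzmb, which encodes the killer protease granzyme B, had 10.45 in 31D3, 6.56 in 32D1, 6.67 in 37I1, 5.19 in 50I1 and 4.99 in 52I4. Nkg7, a granule protein gene of killer cells, had 9.14, 6.81, 6.39, 5.22 and 5.50. Cd3e, a chain of the T cell receptor complex, had 10.23, 8.07, 8.01, 7.46 and 7.59. In each, 31D3 was over 2 log2 units above the next tumour and the other 4 were closer together. Gzma, another granule protease gene, was less uniform, with 8.05 in 31D3, 6.95 in 37I1 and 4.28 in 32D1.

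Mast cell genes were highest in 31D3 and lowest in 50I1. The 14 measured genes averaged 9.97 in 31D3, 8.74 in 32D1, 8.15 in 37I1, 7.26 in 50I1 and 8.24 in 52I4. Of them, 12 were highest in 31D3 and 12 lowest in 50I1, against 20.0% and 16.3% of all genes. The protease gene Mcpt1 had 13.21, 11.87, 10.90, 9.44 and 9.78, and Mcpt9 had 9.97, 7.23, 5.93, 4.90 and 5.67. Mcpt8, of the same family, had 10.48, 9.24, 6.63, 6.59 and 7.99. The span over the list was 2.71, and 1.48 without 31D3, with 32D1 then highest and 50I1 still lowest. The 2 genes not highest in 31D3 were the chymase gene Cma1, with 9.62 in 52I4 and 9.50 in 31D3, and Kit, the stem cell factor receptor gene. Kit, which mammary luminal cells also express, had 6.81, 5.59, 8.98, 7.68 and 7.43.

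Macrophage, antigen presentation and complement genes were also highest in 31D3, over smaller ranges. Of 22 macrophage and myeloid genes 20 were highest in 31D3 and 19 lowest in 50I1, against 20.0% and 16.3% of all genes. Their means ran from 10.57 to 8.72, a span of 1.85 that was 1.24 without 31D3. Cd163, the haemoglobin scavenger receptor of tissue macrophages, had 8.75, 6.20, 6.83, 5.14 and 5.96 in 31D3, 32D1, 37I1, 50I1 and 52I4. The antibody receptor gene Fcgr2b and the leukocyte gene Cd53 were at 11.03 and 11.25 in 31D3 and at most 9.19 and 9.98 elsewhere. The monocyte receptor gene Cd14 departed from the list, with its highest value, 12.26, in 37I1 and its lowest, 10.46, in 32D1.

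All 12 MHC class II genes were highest in 31D3, against 20.0% of all genes. Of them, 7 were lowest in 52I4, against 12.1% of all, and 5 in 50I1, against 16.3%. Ciita, the master activator of the class II genes, had 8.36 in 31D3, 7.29 in 32D1, 7.66 in 37I1, 6.34 in 50I1 and 5.90 in 52I4, and the list spanned 1.75, or 0.90 without 31D3. The class II chain gene RT1-Bb and the costimulator gene Cd86 were at 6.69 and 7.36 in 31D3 and at most 5.62 and 6.86 elsewhere. C3, the central complement component, had 11.75, 10.53, 10.98, 8.52 and 8.59. In Ciita and C3, 50I1 and 52I4 were the lowest pair. Serping1, the inhibitor of complement C1, was lowest in 50I1, at 9.14, and highest in 31D3, at 12.04. The 15 complement genes spanned 1.52, and 1.14 without 31D3, and the 6 measured B cell and plasma cell genes spanned 1.16, and 0.74 without 31D3, led by Jchain, the joining chain of secreted antibodies, at 9.39 in 31D3 and 8.88 in 37I1. The B cell receptor genes Cd22 and Blnk lay between 5.06 and 6.16 and between 7.55 and 8.86.

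Chemokine genes split between tumours. Ccl7 and Ccl2, which attract monocytes, were highest in 31D3, at 10.09 and 11.02, and lowest or near lowest in 50I1, at 5.87 and 8.17. Ccl4, which attracts several leukocyte types, had 8.02 in 31D3 and at most 6.42 elsewhere. The 13 cytokine and chemokine genes spanned 1.44, and 0.79 without 31D3. Cxcl13, which attracts B cells, had 10.85 in 31D3, 9.50 in 32D1, 7.92 in 37I1, 5.80 in 50I1 and 6.95 in 52I4. Ccl21, which attracts cells with the receptor CCR7, had instead 4.27, 6.80, 9.02, 5.30 and 8.55. It was at background level in 31D3, where the T cell genes were highest. The neutrophil genes S100a8 and S100a9 were highest in 32D1, at 9.88 and 10.22, and second in 37I1, at 8.70 and 9.46, whereas the protease gene Mmp9 was highest in 37I1, at 6.09.

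**Figure D3:**
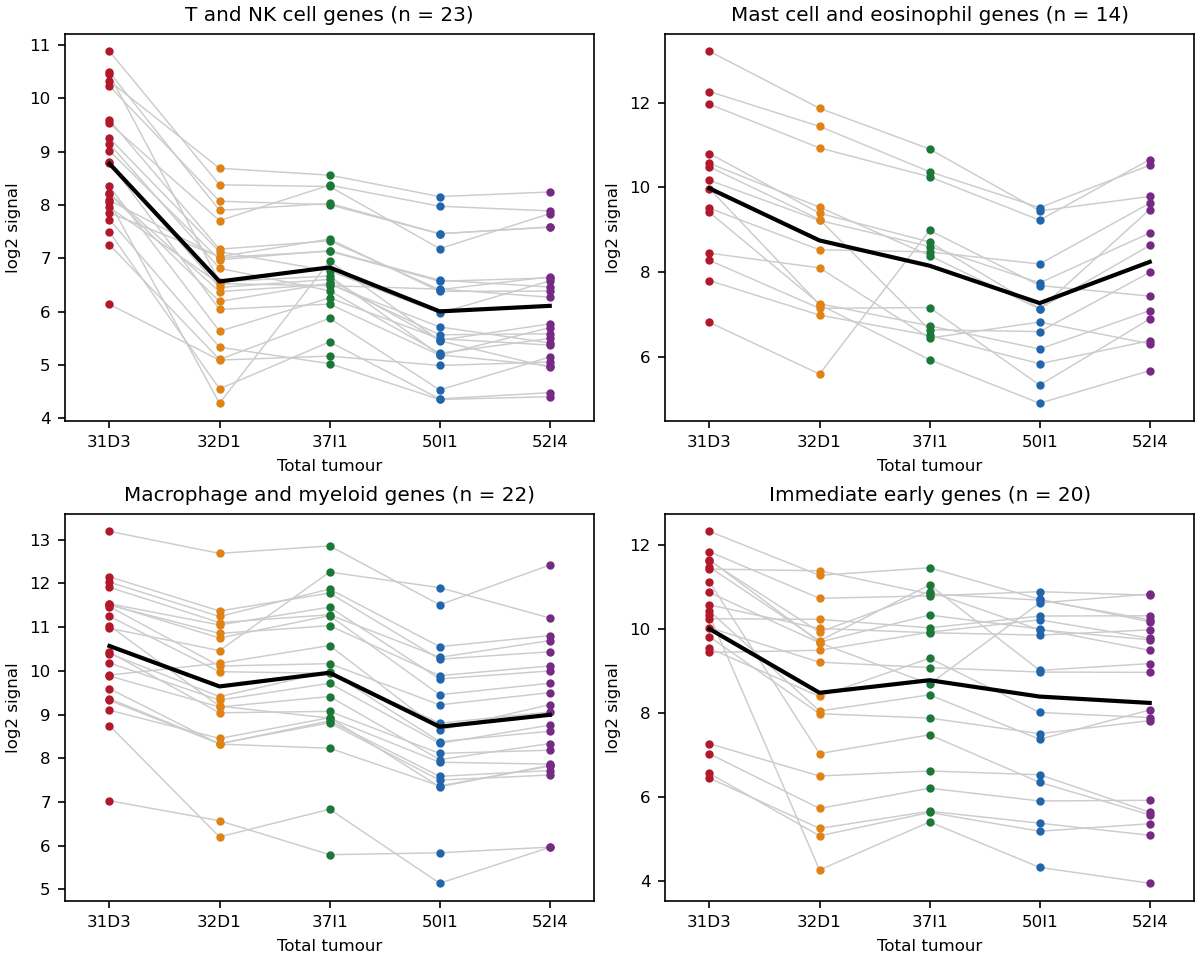
Log2 signal (vertical axes) of T and NK cell, mast cell and eosinophil, macrophage and myeloid, and immediate early genes in each total tumour (horizontal axes). Thin lines are genes and thick lines are list means. The mean is highest in 31D3 in all 4 panels, and 50I1 is the lowest in the 3 immune panels.

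Immediate early and stress genes were also led by 31D3. Fosb, a subunit of the transcription factor AP-1, had 10.34 in 31D3 and 4.26, 5.40, 4.32 and 3.94 in 32D1, 37I1, 50I1 and 52I4. Atf3, a stress-induced transcription factor, had 11.13 in 31D3 and at most 7.48 elsewhere, and Klf4 had 10.43 and at most 8.43. Of 20 immediate early genes 18 were highest in 31D3, against 20.0% of all genes, although Jund and Myc were not. The list spanned 1.77, and 0.49 without 31D3. The heat shock genes Hspa1a and Hspb1 were at 12.75 and 11.73 in 31D3, above 10.68 and 10.24 in 50I1, while the chaperone genes of the endoplasmic reticulum Hspa5, Canx and Pdia3 had SDs of at most 0.10. This stress list spanned 0.83, and 0.24 without 31D3. With the median of its genes it spanned 1.67, and 37I1 was lowest instead of 52I4. These lists were highest in the tumour in which the immune lists were highest, and how far the 2 go together was not tested.

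Hypoxia and glycolysis genes had 31D3 and 52I4 as their extremes. Of 28 genes, 22 were highest in 31D3 and 17 lowest in 52I4, against 20.0% and 12.1% of all genes, and the list spanned 1.12. Egln3, an oxygen-sensing prolyl hydroxylase, had 10.93 in 31D3, 9.25 in 32D1, 9.13 in 37I1, 9.42 in 50I1 and 6.95 in 52I4. Vegfa, the main growth factor of vessels, had 9.98, 9.13, 9.59, 9.26 and 7.75, and its second probe set was also highest in 31D3. In the main probe sets of both genes 52I4 was lower than the other 4 tumours by over 1 log2 unit. The gap was smaller in the second Vegfa probe set, with 7.03 in 52I4 and 7.82 in 37I1, the next lowest. Adm, the vessel-relaxing peptide gene, had 9.31 in 31D3 and 6.59 to 7.77 in the other tumours. Aldoc, an aldolase gene of glycolysis, departed from the list, with 8.66, 8.54, 10.81, 9.88 and 8.98, highest in 37I1. Core glycolytic genes such as Ldha and Eno1 had SDs of 0.14 and 0.08. The span was 0.65 without 31D3 and 0.61 without 52I4.

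Proliferation genes took another order. Of 28 mitosis and spindle genes, 26 were highest in 50I1, against 16.7% of all genes, and 26 were lowest in 37I1, against 23.9% of all. Their mean was 7.49 in 31D3, 8.48 in 32D1, 7.18 in 37I1, 8.86 in 50I1 and 8.41 in 52I4. No member had an SD over 1, and their median SD was 0.76. Mki67, the gene of the Ki-67 antigen that pathologists use to count cycling cells, had 8.56, 9.29, 8.16, 10.03 and 9.33. Cdk1, the kinase that starts mitosis, had 8.65, 9.75, 8.34, 10.31 and 9.91. The cell division genes Ect2 and Kif20a were at 9.24 and 8.73 in 50I1 and at 7.18 and 6.67 in 37I1. Kif2c and Birc5 were the members not highest in 50I1, both being highest in 32D1.

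DNA replication genes had the same extremes, with a span of 1.07. Of 26 genes 19 were highest in 50I1 and 17 lowest in 37I1, against 16.7% and 23.9% of all genes. Uhrf1, which carries DNA methylation through replication, had 6.85, 8.25, 6.61, 8.80 and 7.98. Of the replication licensing genes, Cdt1 had 8.49 in 50I1 and 7.13 in 37I1, while Mcm6 had 9.56 in 50I1 and was lowest in 31D3, at 8.20, just below 8.21 in 37I1. The cyclin gene Ccnd1, which acts early in the cycle, was also lowest in 37I1, at 11.45, but highest in 52I4, at 12.25. Tumour 37I1 was thus lowest in mitosis genes and highest in the milk list, but 50I1, highest in mitosis genes, was also the second in the milk list and the highest in Csn2 and Wap. Tumour 32D1 was high in mitosis genes and lowest in the milk list.

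Interferon response genes were highest in 37I1. Their mean over 25 genes was 8.60 in 31D3, 9.22 in 32D1, 9.75 in 37I1, 8.64 in 50I1 and 8.14 in 52I4. Of them, 16 were highest in 37I1 and 13 lowest in 52I4, against 23.4% and 12.1% of all genes. Irf7, the interferon-induced regulator of interferon genes, had 9.01, 11.19, 12.02, 10.32 and 9.48, and Isg15, a ubiquitin-like modifier, had 9.06, 11.13, 11.80, 10.03 and 8.78. Both were lowest in 31D3 or 52I4 and second highest in 32D1. Mx1, a GTPase that acts against viruses, had 7.47, 9.03, 10.77, 7.73 and 7.06. For Mx2 the probe sets disagreed: the main set was highest in 37I1, at 10.55, and the other had 3.09 in 31D3, 11.16 in 32D1 and 8.41 in 37I1.

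The 3 chemokine genes of this list, Cxcl9, Cxcl10 and Cxcl11, which attract T cells through CXCR3, shared their highest tumour with the T cell genes instead. All 3 were highest in 31D3, with a mean of 9.08 there and 6.31 to 7.07 in the other tumours. All 3 were lowest in 52I4, as was the interferon list, whereas the T cell and NK cell list was lowest in 50I1. The remaining 22 genes had means of 8.53 in 31D3 and 10.14 in 37I1. Gbp2, Tap1 and Irf1 were likewise highest in 31D3.

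**Figure D4:**
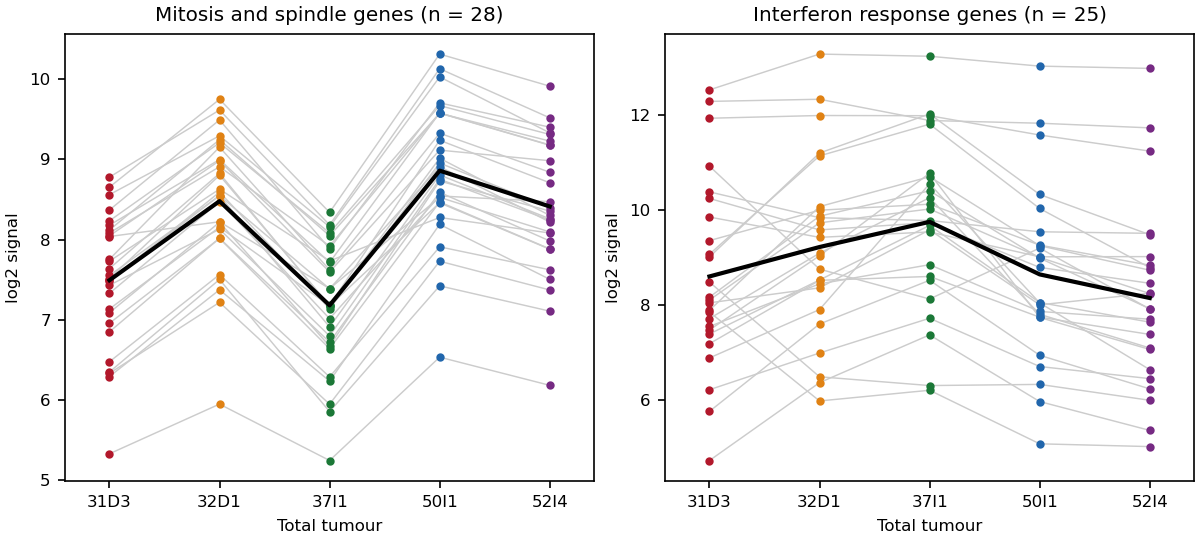
Log2 signal (vertical axes) of 28 mitosis and spindle genes and 25 interferon response genes in each total tumour (horizontal axes). Thin lines are genes and thick lines are list means. The mitosis lines run nearly in parallel, low in 31D3 and 37I1 and high in 50I1, and the interferon mean is highest, 9.75, in 37I1.

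The promoters of an interferon gene and a mitosis gene are shown because 16 of 25 interferon genes were highest in 37I1 and 26 of 28 mitosis genes in 50I1. The interferon-stimulated response element, searched as TTTC, any 2 bases and TTTC, is in capitals in Irf7, and TTTGAA, the cell cycle genes homology region (CHR), is in capitals in Cdk1, both searched on both strands in the same windows.
Irf7, chr1:205799974-205800273, minus strand: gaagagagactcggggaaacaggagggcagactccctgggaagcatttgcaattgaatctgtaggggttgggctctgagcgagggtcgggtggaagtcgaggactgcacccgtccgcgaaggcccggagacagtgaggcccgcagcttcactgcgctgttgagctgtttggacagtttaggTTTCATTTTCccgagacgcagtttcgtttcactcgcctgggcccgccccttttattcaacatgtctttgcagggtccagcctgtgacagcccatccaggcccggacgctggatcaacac
Cdk1, chr20:19265043-19265342, plus strand: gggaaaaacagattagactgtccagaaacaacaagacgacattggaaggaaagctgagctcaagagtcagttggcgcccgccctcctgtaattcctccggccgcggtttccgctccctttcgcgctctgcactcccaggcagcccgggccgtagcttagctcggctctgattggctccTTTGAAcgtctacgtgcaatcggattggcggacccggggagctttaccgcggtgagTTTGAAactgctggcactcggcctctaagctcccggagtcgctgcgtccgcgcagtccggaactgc
The response element was in 12 of 19 promoters of interferon genes kept, or 63.2%, against 3.04% of the promoters of all genes kept and 3.92% of all promoters. The CHR was in 17 of 25 promoters of mitosis genes kept, or 68%, against 11.6% and 18.3%. TGACGTCA, the cyclic AMP response element, was in 3 of 14 promoters of immediate early genes kept (Jund, Ier2 and Dusp1), or 21.4%, against 3.09% and 1.83%, and not in that of Fosb. Where searched strings overlap, as in Oas1a, each start was counted. These 3 searches were added after the values were seen, and a match does not show that a factor acts there.

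Stromal genes were highest in 52I4 and 31D3. Of 26 fibroblast and fibrillar matrix genes, 16 were highest in 52I4, against 18.9% of all genes, and 9 in 31D3, against 20.0%. The list mean was 10.58 and 10.42 in these tumours and 9.61 to 9.88 in the others. Col1a1, the main chain of type I collagen, had 11.10 in 31D3, 11.07 in 32D1, 10.83 in 37I1, 11.17 in 50I1 and 12.45 in 52I4. Dcn, which encodes the collagen-binding proteoglycan decorin, was high in 4 tumours, at 12.35 to 13.16, and 10.23 in 50I1. Lox, which crosslinks collagen, was highest in 31D3, at 10.74, and the fibrillin gene Fbn1 in 52I4, at 10.64. Sfrp2, a secreted modulator of Wnt signals made by fibroblasts, had 5.31, 6.51, 6.95, 9.20 and 10.15. Collagen and decorin thus set different tumours apart.

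Among proteases, Mmp13, a collagenase, had 11.03 in 31D3, 11.98 in 32D1, 12.09 in 37I1, 9.77 in 50I1 and 9.14 in 52I4, and Mmp7, an epithelial protease, had 10.19, 7.51, 11.17, 8.87 and 8.27. Serpinb2, an inhibitor of plasminogen activators, had 8.09 in 32D1 and was near background in 50I1 and 52I4, at 3.32 and 3.21. The protease list spanned 0.77, and 0.64 without 31D3 or 0.45 without 50I1. The endothelial list was highest in 31D3, at 7.87, and lowest in 32D1 and 50I1, at 7.00 and 7.02, and further normalization put 50I1 lowest. Its span of 0.88 was 0.73 without 31D3. Its most variable member Esm1 was highest in 50I1, at 8.34, and Emcn and Cldn5 in 31D3, at 9.32 and 8.53.

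Pgr, the progesterone receptor gene, had 6.63 in 31D3, 6.97 in 32D1, 8.03 in 37I1, 6.82 in 50I1 and 6.84 in 52I4. Esr1, the gene of estrogen receptor alpha, was below the brightness limit in all 5, with a mean of 4.52, so nothing can be read from its differences. Erbb2 lay between 7.91 in 31D3 and 9.04 in 32D1. Areg, a growth factor gene induced by estrogen in mammary epithelium, had 12.15, 10.59, 10.60, 11.81 and 12.71. The Wnt ligand genes Wnt5a and Wnt4 were lowest in 37I1, at 5.68, and in 31D3, at 8.71. Spp1, the osteopontin gene, lay between 9.74 and 10.67. The hormone receptor and luminal regulator list as a whole spanned 0.31, or 1.41 with the median of its genes and 0.095 without 31D3. It had no steady highest tumour, which was 52I4, 50I1 or 32D1 depending on how probe sets were filtered and summarised.

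Lipid and sterol synthesis genes were lowest in 31D3, in 17 of 24 cases against 29.9% of all genes, with means of 8.66 in 31D3 and 9.02 to 9.40 in the others. Fasn, the fatty acid synthase gene, had 9.83, 10.88, 11.71, 11.19 and 10.60 and was highest in 37I1, as was its second probe set. Idi1, an enzyme of isoprenoid synthesis, had 9.08, 10.08, 8.68, 10.17 and 9.41. The fatty acid gene was thus highest in the tumour where the sterol gene was lowest. The span of the list was 0.74, and 0.38 without 31D3.

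Of the 30 lists, 16 spanned over 1 log2 unit and 7 under 0.5, and the highest tumour was 31D3 for 12 lists, 37I1 for 8, 50I1 and 52I4 for 4 each and 32D1 for 2. The clock list spanned 0.56, and 0.33 without 37I1, in which Bhlhe41, a repressor that answers to the clock, had 11.43 in 37I1 and 8.39 in 32D1. The clock output genes Nfil3 and Hlf were highest in 31D3, at 8.62, and in 52I4, at 8.37. The epidermal and nerve lists spanned 0.33 each, but 0.79 and 1.01 with the median of their genes. Without 37I1 the epidermal list spanned 0.113, and without 52I4 the nerve list spanned 0.162. In the epidermal list Dmkn, a secreted skin protein, had 9.62 in 37I1 and 7.10 in 32D1. Of the 11 genes of that list 2 were lowest in 32D1, near the 17.8% of all genes.

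**Figure D5:**
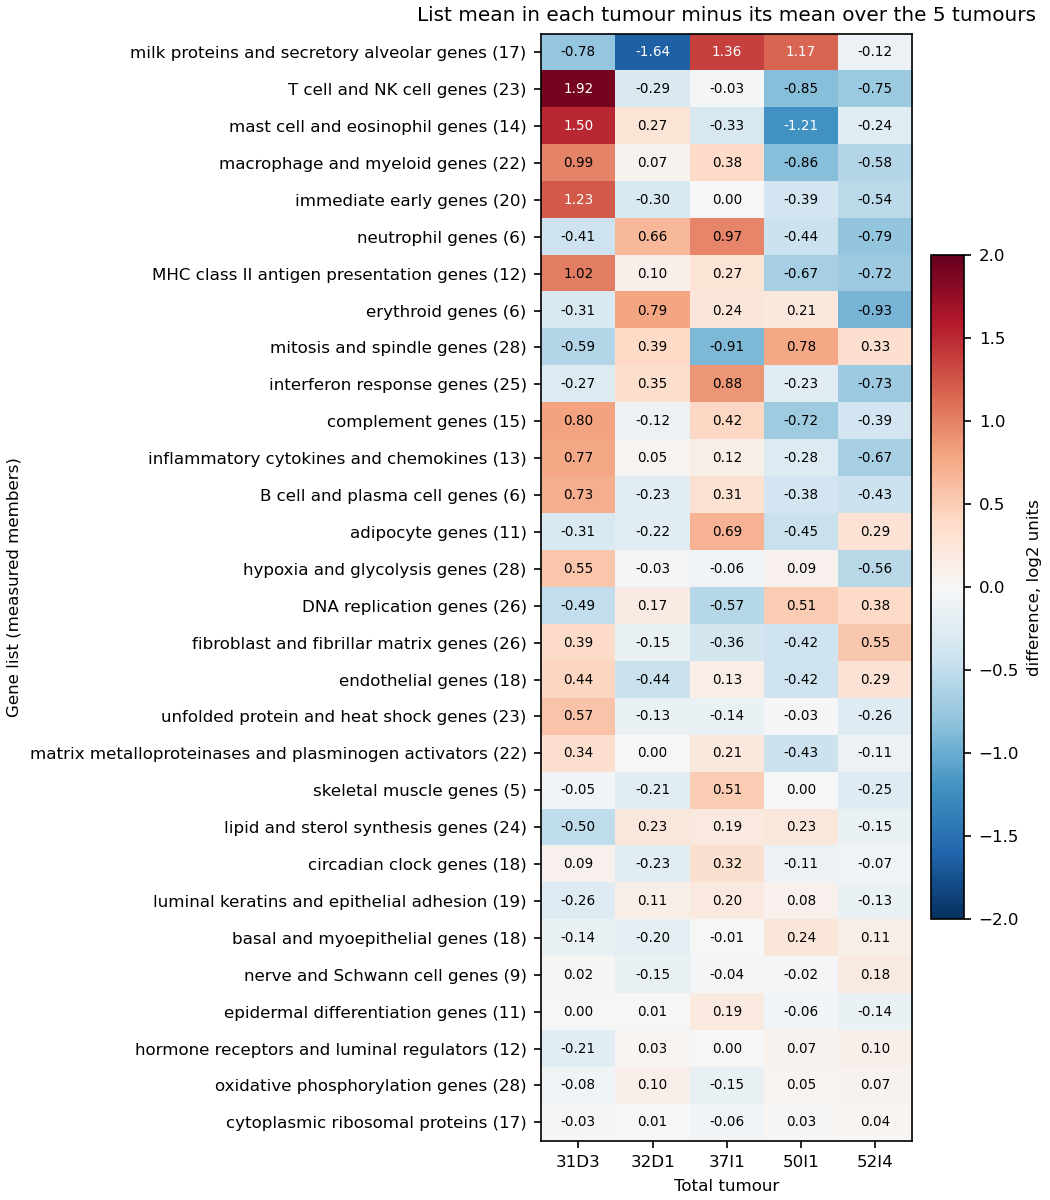
Difference, in log2 units, between the mean of each gene list in a total tumour (columns) and its mean over the 5 tumours, for 30 lists (rows, with the number of measured members) ordered by their span. Red is above and blue below the mean. The milk list, at the top, spans 3.0 and the ribosomal list, at the bottom, 0.10; most immune and stress lists are red in 31D3, and mitosis and replication lists are blue in 31D3 and 37I1.

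The variable genes were also counted without regard to lists. Of the 328 genes, 155 (47.3%) were highest in 31D3, 86 in 37I1, 44 in 52I4, 24 in 50I1 and 19 in 32D1, where the shares of all genes were 20.0%, 23.4%, 18.9%, 16.7% and 21.0%. In 50I1, 111 (33.8%) were lowest. The 2 highest tumours were 31D3 and 37I1 in 71 of the 328 genes (11.3% of all), 31D3 and 32D1 in 65 (9.30% of all) and 37I1 and 50I1 in 60 (11.0% of all). They were 50I1 and 52I4 in 33 (15.3% of all), 32D1 and 37I1 in 31 (10.6% of all) and 31D3 and 52I4 in 30 (8.92% of all). Of 120 possible orders of the 5 tumours 78 were taken, and the 3 commonest held 88 genes (26.8%), against 5.80% of all genes kept. These 3 orders were picked as the commonest among the 328 genes, so a larger share there was partly set by the choice. The first, from 31D3 over 37I1, 32D1 and 52I4 down to 50I1, held 32 genes, among them C3, Cd163, Cd5, Cd3d, Cxcr3, Vcam1 and Ccl11. The second, with 32D1 ahead of 37I1, held 31, among them Cxcl13, Mcpt9, Mcpt1, Nkg7, Prf1, Cd3e and Ccl5. The third, from 37I1 over 50I1, 52I4 and 31D3 down to 32D1, held 25, among them Csn1s1, Csn3, Lalba, Olah, Elf5, Kit, Muc4 and Pigr, the carrier of antibodies into milk. Of the 328 genes 87 were in some list and 241 in none. Genes are not independent of each other, so these counts describe the 5 tumours only.

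Several of the largest SDs belonged to no list. Vch had 11.40 in 31D3, 7.99 in 32D1, 5.60 in 37I1, 4.23 in 50I1 and 5.44 in 52I4. Wfdc18, a secreted protein of the whey acidic protein domain family, had 12.00, 9.93, 11.15, 6.36 and 7.13, an order unlike that of Wap. Pcdh10, a cell adhesion protocadherin, had 9.56 in 32D1 and at most 6.11 elsewhere, and Rprm, a gene of cell cycle arrest, had 10.12 in 32D1 and at most 7.79 elsewhere. Foxi1, a transcription factor of ion-transporting cells, had 4.42, 4.52, 10.04, 7.83 and 7.68. Prr27 and the mucin gene Muc4 followed the order of Elf5 and Olah, with 12.34 and 9.69 in 37I1 and 7.20 and 4.59 in 32D1.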

How the data were processed

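RNA of 5 total tumours was hybridised to Affymetrix rat genome arrays. The values deposited for each probe set are log2 signals, normalized by the authors with RMA, per the submitters' processing notes. RMA puts all arrays on 1 distribution, so a shift shared by most transcripts is removed. Its version is not given in the sources used here, nor is the definition of the chip.

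Of 31042 probe sets that are not controls, 20826 had 1 gene in the platform annotation, 436 several and 9780 none listed, and genes were named only from the first. The dimmest 40% by mean over the 5 arrays were left out, and each gene was taken from its brightest probe set. A gene list needed 5 measured members, and its value is the mean of their log2 signals. Of 701 list genes, 512 were measured. Members and lists were chosen with earlier results of these data known. Genes to name were drawn from the 15 brightest, the 25 largest SDs, the 3 most variable members of each list and fixed receptor, keratin, milk and growth genes; some of these are not printed, and other members named were chosen after their values were seen. Calculations used Python 3.11.15 with numpy 2.4.6, pandas 2.3.3 and scipy 1.17.1, and figures matplotlib 3.10.9. The SD and the highest and lowest tumour of a gene were tested on simulated data with large planted differences. That checks the code for these values only and gives no support to the results. The 5 arrays limit the precision, and the labels do not say whether the spread between them is between rats. Alternatives were other filters, summaries of probe sets and normalizations, and leaving out each tumour.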

Additional observations from a re-analysis of the deposited data

Results flagged for a closer look

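With 5 tumours, a value was singled out where its gap to the nearest of the others was over 0.71 of the whole range (Dixon's 95% value), which chance gives in about 1 of 20 groups. Of 30 list means and 132 named genes, 1 list and 10 genes met this. For the lists that is below 1 in 20 and for the genes not far above it, so both counts are near the chance rate. The rule weighs a gap against the range, so a small difference can also meet it. In 31D3 the unfolded protein and heat shock list, at 10.38 with the next tumour at 9.79, was above the rest. Fosb was far above the rest there, at 10.34 with the next at 5.40. In 37I1 Acta1 (9.48, next 4.76), Saa3 (9.43, next 4.85) and Pgr (8.03, next 6.97) were above the rest. Rpl27 was below the rest in 37I1, at 13.22 with the next at 13.38, but its whole range was only 0.20. In 50I1 Plagl1 (11.16, next 6.68) and Igf2 (10.58, next 5.94) were far above the rest, and Dcn was far below, at 10.23 with the next at 12.35. Krt18 was above the rest in 32D1, at 13.03 with the next at 12.49, and Col1a1 in 52I4, at 12.45 with the next at 11.17. The genes had mostly been named for their large SD over these same values. They are therefore not a random sample of genes, and meeting the rule is no further support for them.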

How the results depend on the processing

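No paired analysis was possible because no groups were compared and the results come from no test. The number of genes with an SD over 1 lay between 309 and 361 under other filters, summaries of probe sets and normalizations, and a range over 2 in place of the SD gave 614. It was 238 without 31D3, 196 of them shared with the 328, and 383 without 32D1. Further probe sets highest in the same tumour made up 78.1% with no filter, which adds dim probe sets, in place of 91.5%.

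Of 214 list spans under other settings 205 changed by less than the SD of that list's means over the tumours, which is a loose limit. The same tumour was highest in 199 and lowest in 202. The skeletal muscle span was 0.42 with the dimmest 25% left out and 0.14 with no filter. With the median of members, spans were 1.41 for hormone receptors, 0.65 for luminal, 0.85 for basal, 0.79 for epidermal, 1.67 for unfolded protein and heat shock, 1.01 for nerve and 0.19 for ribosomal genes. The neutrophil list, with 3 of 6 genes highest in 37I1 (23.4% of all genes), was highest in 32D1 with the median or without Lcn2. The ribosomal and lipid lists changed their highest tumour under median centring. The causes were not tested.

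With each tumour left out in turn, spans ranged from 0.095 to 0.310 for hormone receptors, 0.384 to 0.738 for lipid synthesis, 0.854 to 2.76 for T and NK cells, 1.48 to 2.74 for mast cells, 0.899 to 1.75 for MHC class II, 0.792 to 1.44 for cytokines, 0.611 to 1.12 for hypoxia, 0.236 to 0.830 for heat shock, 0.493 to 1.77 for immediate early, 0.113 to 0.327 for epidermal, 0.325 to 0.557 for clock, 0.454 to 0.775 for metalloproteinase and 0.162 to 0.328 for nerve genes. Skeletal muscle genes without 37I1 or Acta1, and neutrophil genes without 37I1, had under 5 measured members and no value, and orders were not counted over 4 tumours. Leaving out Kit, Lcn2, Acta1, Gpd1 with Cfd, or the CXCR3 chemokines was chosen after seeing the data. Signals near 5.15 limit the size of differences.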

Other observations

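Imprinted growth genes were high in different tumours, an observation chosen after the values were seen. Igf2, a fetal growth factor, had 5.94 in 31D3, 5.65 in 32D1, 5.05 in 37I1, 10.58 in 50I1 and 5.56 in 52I4, and Plagl1, an imprinted transcription factor, had 5.08, 5.61, 6.60, 11.16 and 6.68. Dlk1 was also highest in 50I1, at 6.98. H19, the imprinted neighbour of Igf2, was highest in 52I4 instead, at 7.43 against 6.61 in 50I1. Cdkn1c, an imprinted inhibitor of cyclin-dependent kinases, had 9.52 in 52I4 and at most 7.32 elsewhere, and Mest had 8.31 in 52I4 and at most 6.06 elsewhere.

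In 51 of the 10858 genes kept, 1 tumour was over 2 log2 units above the next while the other 4 lay within 1.5 log2 units. Of these, 33 were high in 31D3, 10 in 37I1, 5 in 52I4, 2 in 50I1 and 1, Krt20, in 32D1. The shares of all genes highest in these tumours were 20.0%, 23.4%, 18.9%, 16.7% and 21.0%. The 33 include T cell genes such as Cd3d, Cd3e and Cd8a, so they repeat in part the pattern given above. Acta1, the skeletal muscle actin gene, had 9.48 in 37I1 and at most 4.76 elsewhere, whereas the muscle genes Ckm, Myl11, Tnnt3, Myh4 and Mb were at 4.20 or lower in all 5. Other genes of that list had signal in every tumour: Myh1 had 9.93 to 10.99, Tnni2 had 6.37 to 6.96 and Atp2a1 had 5.78 to 6.83. The Myh1 probe sets disagreed on the lowest tumour. It was 37I1 in the main set and in a dimmer one, at 6.07. In the others it was 52I4, for example at 9.40 against 9.77 in 37I1. Saa3, an acute-phase gene, had 9.43 in 37I1 and at most 4.85 elsewhere. The genes of red blood cells were highest in 32D1 in 5 of 6 cases, against 21.0% of all genes, with Hbb at 13.26 there and 10.90 in 52I4. Among fat cell genes, Fabp4 was high in 37I1 and 52I4, at 8.02 and 8.23, and 4.47 in 50I1, and Adipoq was below the brightness limit on average.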
